A study of Mus musculus with 87 samples.

Results

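The interferon regulatory factor genes Irf1, Irf2, Irf3, Irf5, Irf7, Irf8 and Irf9 were followed in nuclei of the mouse ventral midbrain after an injection of interferon-γ (IFN-γ). They were found by their gene symbols, and all 7 were among the 48526 genes of both count tables. Of the 7, 6 had at least 1 count in each table, and Irf8 had 0.

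Interferon regulatory factors (IRFs) are transcription factors that share a DNA-binding domain and recognise interferon-stimulated response elements. The IFN-γ receptor signals through JAK kinases to genes with gamma-activated sites (GAS), and Irf1 is a classical early target that carries the response on to genes of antigen presentation. IRF2 can occupy the same sites as IRF1, IRF9 is a subunit of the complex ISGF3, IRF3 and IRF7 act below sensors of foreign nucleic acids, and IRF5 and IRF8 are best known from microglia and other myeloid cells.

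The mice were adult wildtype C57BL/6J animals of both sexes, and each received saline or 40 ng of IFN-γ in 400 nL by stereotaxic injection into the ventral midbrain. Nuclei taken 6, 24, 48 or 72 h later were sorted into plate wells with an antibody to NeuN, a nuclear protein of neurons, and unique molecular identifiers (UMIs) were counted per gene. Each fraction, NeuN+ (neuronal) and NeuN- (largely glial), had 42 wells, with 6 IFN-γ wells at each time, 6 saline wells at 24 h and 4 saline wells at each other time. A second experiment counted UMIs in 4699 single nuclei at 48 h, enriched for NeuN+ nuclei, from 1 saline mouse and 2 IFN-γ mice.

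NeuN- wells held 20962 to 301445 UMIs and NeuN+ wells 277113 to 1684374, so 1 count weighed more in a NeuN- well. Levels are given in CPM, the UMIs of a gene per 1000000 UMIs of its well. The labels name every well NeuN+, so the fraction was read by well barcode from a supplementary file of the study, and the markers were checked against it. The 6 oligodendrocyte markers summed to 2347 to 8692 CPM in wells listed as NeuN- and to 157 to 700.1 CPM in wells listed as NeuN+, and the 4 general neuronal markers to 175 to 1669.7 and 3749 to 7881 CPM. The wells of each treatment and time came from 2 to 3 mice, so wells of a group share animals, and which wells do was not stated. The p-values therefore measure the spread between wells and are too small as statements about mice. The Y-linked gene Uty lay at 43 to 83.2 CPM in NeuN+ saline wells at 6 h and at 2.37 to 5.33 CPM in IFN-γ wells, and at 24 h at 4.87 to 318 and 297 to 329.7 CPM. The X-linked gene Xist overlapped at 6 h, at 984 to 1149 CPM in NeuN+ saline wells and 938 to 1266 CPM in IFN-γ wells. At 6 h no saline well matched the IFN-γ wells in Uty. Treatment and the sex of the mice therefore cannot be told apart at 6 h, and in part at 24 h.

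The letters of a GAS and of an interferon-stimulated response element (ISRE) were looked for in the RefSeq promoter windows of the members (GRCm38.p6, 250 bases before and 50 from the transcription start on). All 7 members matched the table, with 10 windows. A GAS was searched as TTCNNNGAA, which reads the same on both strands, and an ISRE-like motif as GAAANNGAAA or, on the other strand, TTTCNNTTTC. Of the 10 windows, 3 held a GAS, 1 each of Irf1, Irf2 and Irf8, against 8.3% of all 32851 windows. The ISRE-like motif stood in 1 of the 10 windows, that of Irf2, and in 3.44% of all windows, and both motifs together in 0.454%. No window of Irf3, Irf5, Irf7 or Irf9 held these letters, which says nothing of the factors themselves. The windows of Irf9 begin at chr14:55603735 and chr14:55604329, after the start of the gene at chr14:55603571. The bases before that start of Irf9 were therefore not searched.

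The bases before the start of Irf1 and Irf2 are shown, with the motifs in capitals. These 2 members were called higher in NeuN- wells in the fits of genes that passed a filter on low counts. Irf7 and Irf9, whose windows as searched held neither motif, were also called higher in NeuN- wells in fits without that filter. The Irf1 stretch is chr11:53769764-53770013 (plus strand) with the GAS 90 to 82 bases before the start. The Irf2 stretch is chr8:46739495-46739744 (plus strand) with the ISRE-like motif 241 to 232 and the GAS 224 to 216 bases before the start, without overlap.
Irf1: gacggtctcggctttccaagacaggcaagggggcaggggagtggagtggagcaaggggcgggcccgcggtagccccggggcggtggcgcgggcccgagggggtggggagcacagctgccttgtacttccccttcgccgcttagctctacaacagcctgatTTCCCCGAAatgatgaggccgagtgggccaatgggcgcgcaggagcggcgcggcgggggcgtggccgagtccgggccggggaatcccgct
Irf2: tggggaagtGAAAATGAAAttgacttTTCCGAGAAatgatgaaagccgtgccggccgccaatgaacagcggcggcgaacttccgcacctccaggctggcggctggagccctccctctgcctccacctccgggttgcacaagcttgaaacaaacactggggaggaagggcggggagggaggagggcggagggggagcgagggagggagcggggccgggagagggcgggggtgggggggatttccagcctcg

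The first question was how much of each factor the sorted nuclei held without IFN-γ. Over the 18 saline wells of each fraction, Irf1 had 4 UMIs in all NeuN- wells together and 14 in all NeuN+ wells, with 14 and 11 wells at 0. Irf7 had 0 UMIs in NeuN- wells, which allows up to 1.49 CPM over the group by a floor of 3 counts, and 6 UMIs in NeuN+ wells. Both genes were therefore at or near the limit of detection in saline.

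Irf2 was well measured in saline, at 133, 181 and 235 CPM (lowest, median and highest well) in NeuN- nuclei and at 101, 119 and 160.3 CPM in NeuN+ nuclei. The ranges of the fractions overlapped. It was the 1 member tested between fractions, and it was lower in NeuN+ wells by the quasi-likelihood test of edgeR (log2 difference -0.65, SE 0.08, edgeR adjusted p = 1.17e-09), where 59.7% of all genes tested were called at a limit of 0.5. Other scalings moved the median of all genes, which was 0.00 here. Without a filter on low counts Irf2 was at -0.20 (edgeR adjusted p = 0.0973) with that median at 0.39, and with RLE size factors it was at -0.50 with the median at 0.15. With DESeq2 Irf2 was at -0.41 and the median at -0.94, so that Irf2 lay above the median gene there and below it in the edgeR fits.

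Irf3 lay at 8.42, 29.3 and 50.8 CPM in NeuN- saline wells and at 1.84, 11.6 and 18 CPM in NeuN+ saline wells. Irf5 had 15 UMIs in NeuN- and 30 in NeuN+ saline wells, with 8 and 5 wells at 0. Irf9 lay at 0, 8.49 and 28.9 CPM in NeuN- saline wells and at 3.08, 5.91 and 13.9 CPM in NeuN+ saline wells. For each of these genes the fractions overlapped. They did not pass the filter, and in the fit without a filter Irf3 (-0.95, edgeR adjusted p = 0.000551) and Irf5 (-1.71, edgeR adjusted p = 0.00136) were called lower in NeuN+ wells.

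IFN-γ was then compared with saline within each fraction and time, and a gene was called where the log2 fold change passed 1 in size with an adjusted p under 0.01 over all genes tested. In NeuN- wells Irf1 and Irf2 were called higher at 6 h and again at 24 h, which were the 2 members that passed the filter on low counts at each of these times. Of all genes tested there, 11.7% were called at 6 h and 14.6% at 24 h. In NeuN+ wells Irf1 and Irf9 were called higher at 6 and at 24 h, 2 of 4 members tested each time, where 1.37% and 1.73% of all genes were called.

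At 48 and 72 h no member was called in either fraction. In NeuN- wells 1 member was tested at each time, with 1.40% and 1.13% of all genes called. In NeuN+ wells 3 members were tested at 48 h and 2 at 72 h, with 0.169% and 0.766% of all genes called. By edgeR no member tested had an unadjusted p under 0.05 at these times, and DESeq2 called 0. Irf1 and Irf7 were among the members left out by the filter at these times, and their counts are given below. Irf1 in both fractions and Irf9 in NeuN+ wells were high in the IFN-γ wells at 6 and 24 h. They passed the filter through those wells, so the counts out of the members tested are a description. In sorted wells, fewer cells of a type and less RNA per cell cannot be told apart.

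**Figure D1:**
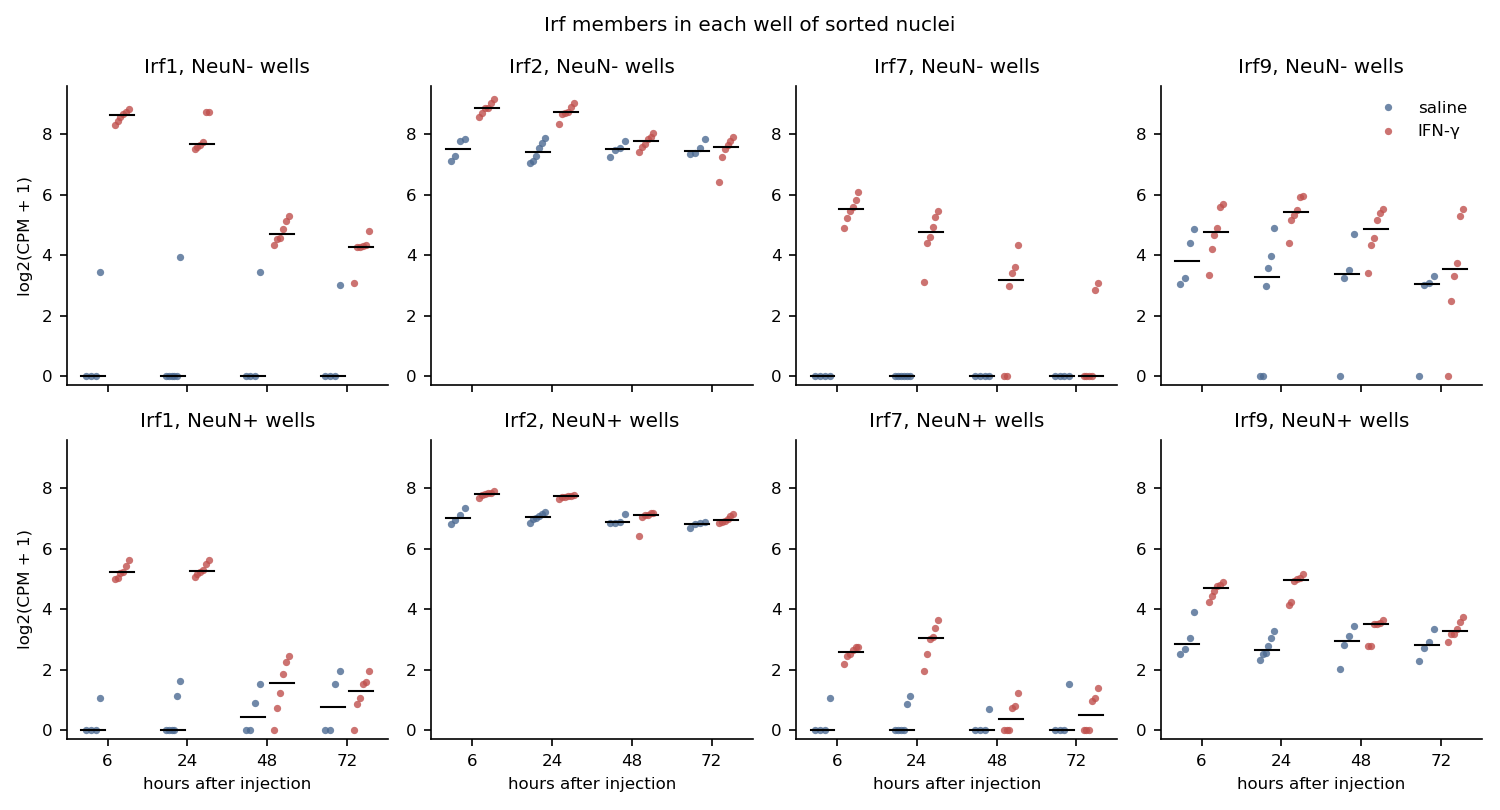
Each point is 1 well, with log2(CPM + 1) of Irf1, Irf2, Irf7 and Irf9 against hours after injection in NeuN- (upper row) and NeuN+ wells (lower row), and black bars mark medians. Irf1 stands clear of saline at 6 and 24 h in both fractions (median 397 and 36.2 CPM at 6 h) and is down to 18.5 and 1.47 CPM at 72 h.

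Irf1 (chr11:53770014-53778374 on GRCm38, plus strand), a transcriptional activator of antigen presentation genes, had the largest change among the members. In NeuN- wells at 6 h it was at 0, 0, 0 and 10 CPM in the saline wells, and at 318, 397 and 455 CPM (lowest, median, highest) in the 6 IFN-γ wells. At 24 h 5 of 6 saline wells were at 0 and the other at 14.4 CPM, and the IFN-γ wells lay at 184, 205 and 427 CPM. The groups did not overlap at either time.

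The saline side of this ratio rested on 1 count at each time. The counting intervals are therefore wide, and the SE of the fits does not show that width. The pooled CPM ratio was 179 at 6 h (95% counting interval 31.9 to 7107) and 119.5 at 24 h (21.2 to 4744). The fitted log2 fold change was 6.88 at 6 h (SE 0.43, edgeR adjusted p = 9.43e-16), and with single wells left out it ranged from 6.49 to 8.55, the highest without saline replicate 3, which held the 1 count. At 24 h it was 6.25 (SE 0.62, edgeR adjusted p = 1.83e-09), and it ranged from 5.91 to 7.87, the highest without saline replicate 1.

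Irf1 stayed above saline in NeuN- wells to the last time studied. At 48 h the IFN-γ wells lay at 19.1, 25.4 and 38.6 CPM, against 0, 0, 0 and 9.83 CPM in saline. At 72 h they lay at 7.44, 18.5 and 27.2 CPM, against 0, 0, 0 and 7.19 CPM. Every IFN-γ well was again above every saline well, at ratios of 13.9 (2.22 to 579) and 9.58 (1.47 to 403). The gene did not pass the filter at these times, and without the filter it was not called (log2 fold change 3.21, edgeR adjusted p = 0.0891 at 48 h, and 2.76, edgeR adjusted p = 0.39 at 72 h).

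In NeuN+ wells Irf1 reached a lower level. Saline wells at 6 h were at 0, 0, 0 and 1.07 CPM, and IFN-γ wells at 30.8, 36.2 and 48 CPM. At 24 h saline wells lay at 0, 0, 0, 0, 1.19 and 2.05 CPM and IFN-γ wells at 32.3, 37.6 and 48.5 CPM. No wells of the groups overlapped at 6 or 24 h, and the ratios were 106 (18.8 to 4187) and 71.4 (27.5 to 264). The fitted log2 fold change was 6.24 at 6 h (SE 0.51, edgeR adjusted p = 1.11e-10), and it ranged from 5.85 to 8.19 with single wells left out, the highest without saline replicate 8. At 24 h it was 5.94 (SE 0.37, edgeR adjusted p = 4.47e-12). With NeuN+ wells thinned to the median total of NeuN- wells, 110247.5 UMIs, the gene no longer passed the filter, and without a filter it was still called (5.02 at 6 h, edgeR adjusted p = 0.00361, and 5.18 at 24 h, edgeR adjusted p = 1.66e-05).

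By 48 h Irf1 in NeuN+ wells overlapped saline, at 0, 1.99 and 4.43 CPM against 0, 0, 0.841 and 1.84 CPM. At 72 h it lay at 0, 1.47 and 2.87 CPM against 0, 0, 1.85 and 2.9 CPM. The ratios were 2.12 (0.667 to 8.86) and 1.08 (0.337 to 4.04), so a difference was not detectable at this depth.

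The level of Irf1 under IFN-γ was lower in NeuN+ than in NeuN- wells without overlap at each of the 4 times, with means 10.4-fold apart at 6 h, 6.96-fold at 24 h, 13-fold at 48 h and 12.7-fold at 72 h. The fold over saline is a different quantity. Its difference between fractions, the interaction, was -1.34 at 6 h (SE 3.46, edgeR adjusted p = 0.887) and -1.06 at 24 h (SE 2.40, edgeR adjusted p = 0.871), and with so few saline counts it could not be measured closely. Under IFN-γ the 6 oligodendrocyte markers summed to medians of 182, 282, 398 and 669 CPM in NeuN+ wells at 6, 24, 48 and 72 h. The medians in NeuN- wells were 4579, 2616, 7489 and 7935 CPM. The part of glial RNA in the NeuN+ levels of Irf1 and the other members was not tested.

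**Figure D2:**
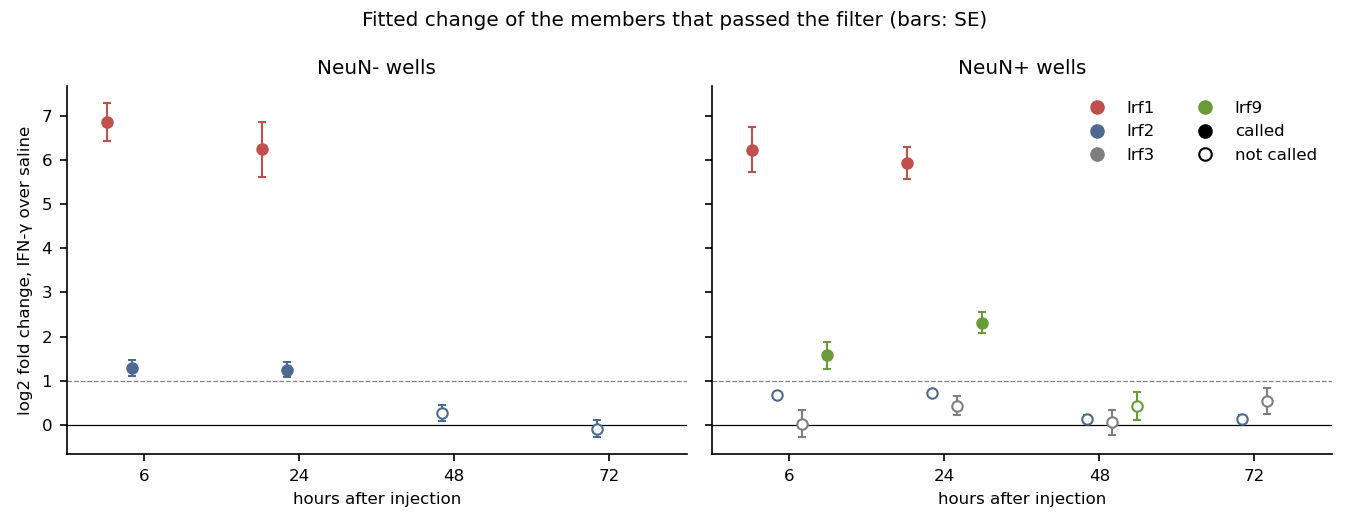
Fitted log2 fold change of IFN-γ over saline against hours after injection for the members that passed the filter on low counts. Bars are 1 SE as derived from the F statistic of the test, and for Irf1 the counting intervals are wider. Filled points were called and open points were not called. The dashed line marks the limit of 1, and the Irf2 points sit above it in NeuN- wells (1.28 and 1.25) and below it in NeuN+ wells (0.67 and 0.71) at 6 and 24 h.

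Irf2 (chr8:46739732-46847458, plus strand), which binds the same kind of site as IRF1 and can act as its antagonist, rose in NeuN- wells from a level already present in saline. At 6 h the saline wells were at 138, 154, 219.6 and 229.9 CPM and the IFN-γ wells at 379, 471 and 569 CPM. At 24 h saline wells lay at 133, 171 and 235 CPM and IFN-γ wells at 321, 426 and 530.0 CPM. The groups stood apart at both times.

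The pooled ratio of Irf2 was 2.52 (1.98 to 3.25) at 6 h and 2.58 (2.04 to 3.28) at 24 h. The fit gave a log2 fold change of 1.28 (SE 0.18, edgeR adjusted p = 3.31e-07) and 1.25 (SE 0.17, edgeR adjusted p = 7.86e-07). With 1 well left out the estimates ranged from 1.13 to 1.39 and from 1.15 to 1.34.

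In NeuN+ wells the shift of Irf2 was smaller and passed the p threshold without reaching the fold limit. Saline wells at 6 h were at 112, 121, 137 and 160.3 CPM and IFN-γ wells at 204, 225 and 236 CPM. At 24 h they were at 113, 131 and 148 CPM and at 197, 211 and 216 CPM. Every IFN-γ well was above every saline well, with ratios of 1.64 (1.47 to 1.84) and 1.6 (1.47 to 1.74). The log2 fold changes were 0.67 (SE 0.08, edgeR adjusted p = 6.27e-07) and 0.71 (SE 0.07, edgeR adjusted p = 5.71e-08).

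The smaller fold of Irf2 in NeuN+ wells was tested by the interaction of fraction and IFN-γ. It was -0.67 at 6 h (SE 0.20, edgeR adjusted p = 0.0215) and -0.65 at 24 h (SE 0.18, edgeR adjusted p = 0.00911), and neither was called at the limits used. No member was called in the interaction at any time, of 3, 4, 1 and 2 members tested at 6, 24, 48 and 72 h, while 2.53%, 4.22%, 0.128% and 0.347% of all genes were. By an unadjusted p under 0.05, Irf2 was the 1 member at 6 h and the 1 member at 24 h, and DESeq2 called 0 at each time.

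At 48 h Irf2 overlapped saline in NeuN- wells, at 171, 217 and 266 CPM against 149.9, 177, 185 and 218 CPM, with 3 of 6 IFN-γ wells above every saline well. In NeuN+ wells the groups also overlapped at 48 and 72 h, with ratios of 1.08 (0.971 to 1.21) and 1.11 (0.988 to 1.25). At 72 h in NeuN- wells the ratio was 0.954 (0.737 to 1.24).

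Irf9 (chr14:55603571-55610030, plus strand), the DNA-binding part of ISGF3, rose in NeuN+ wells. At 6 h its saline wells were at 4.69, 5.37, 7.22 and 13.9 CPM and its IFN-γ wells at 17.8, 24.7 and 28.5 CPM. At 24 h the saline wells lay at 4.01, 5.32 and 8.78 CPM and the IFN-γ wells at 16.6, 30 and 34.4 CPM. The groups did not overlap at either time, and at 6 h 1 saline well stood nearest to them.

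The ratios of Irf9 in NeuN+ wells were 3.13 (2 to 5.13) and 4.99 (3.52 to 7.21). The log2 fold changes were 1.57 at 6 h (SE 0.30, edgeR adjusted p = 0.000549) and 2.31 at 24 h (SE 0.24, edgeR adjusted p = 1.14e-07). The 6 h call was lost without saline replicate 8 (1.37, edgeR adjusted p = 0.0105), and both calls were lost at the depth of NeuN- wells (1.92 and 1.44, edgeR adjusted p = 0.474 and 0.576 in a fit without a filter). Irf9 overlaps the end of Rnf31 on the same strand, so its counts are uncertain for reads from that stretch.

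In NeuN- wells Irf9 had 7 UMIs in saline and 21 with IFN-γ at 6 h, and 5 and 44 at 24 h, too few for the filter. The IFN-γ wells at 24 h lay at 20.1, 42 and 61.4 CPM against 0, 0, 6.86, 11, 14.8 and 28.9 CPM in saline, with 5 of 6 IFN-γ wells above every saline well. The ratio was 4.94 (1.96 to 16), close to that of NeuN+ wells, and without a filter it was called (log2 fold change 2.25, edgeR adjusted p = 0.00386). The interaction of Irf9 at 24 h was 0.02 (SE 0.39, edgeR adjusted p = 0.993).

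Irf9 overlapped saline at 48 and 72 h in both fractions. In NeuN+ wells the 48 h values were 5.81, 10.3 and 11.5 CPM against 3.08, 5.97, 7.57 and 9.83 CPM. The ratios there were 1.31 (0.841 to 2.1) at 48 h and 1.53 (0.938 to 2.58) at 72 h. Those of NeuN- wells were 2.93 (1.07 to 10) at 48 h, from 20 UMIs with IFN-γ and 5 in saline. At 72 h the NeuN- ratio was 2.77 (0.76 to 15.1), from 13 and 3 UMIs.

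Irf7 (chr7:141262706-141266481, minus strand), the factor of the late and amplifying phase of type I interferon production, was sparse but separated the groups at the early times. In NeuN- wells it had 0 UMIs in every saline well. The IFN-γ wells held 33 UMIs at 6 h, at 29.1, 45.6 and 67.5 CPM, and 26 UMIs at 24 h, at 7.67, 26.3 and 43.5 CPM. It was thus at least 6.92-fold higher at 6 h and at least 4.86-fold higher at 24 h, by a floor of 3 counts over the saline wells of that time.

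In NeuN+ wells Irf7 had 1 UMI in the 6 h saline wells and 3 in those of 24 h, against 35 and 39 with IFN-γ. The IFN-γ wells lay at 3.55, 4.98 and 5.74 CPM at 6 h and at 2.88, 7.22 and 11.4 CPM at 24 h, above all saline wells. The ratios were 14.3 (2.4 to 579.5) and 16.2 (5.15 to 82). Irf7 did not pass the filter within either fraction. In fits without a filter both times were called, at 5.48 and 4.83 on the log2 scale in NeuN- wells (edgeR adjusted p = 1.04e-05 and 0.000519) and at 3.41 and 3.75 in NeuN+ wells (edgeR adjusted p = 0.00902 and 3.87e-07).

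At 48 h 5 UMIs of Irf7 were left in the NeuN- IFN-γ wells and at 72 h 2, and in NeuN+ wells 4 at each time. Irf7 IFN-γ wells overlapped saline there.

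Irf3 (chr7:44997648-45002848, plus strand), which is present before infection and is switched on by phosphorylation, had no call between IFN-γ and saline. Its NeuN+ IFN-γ wells had medians of 14.2, 14.4, 11.3 and 13.1 CPM at 6, 24, 48 and 72 h, against 15.3, 11.6, 10.6 and 8.49 CPM in saline, with overlap each time. The log2 fold changes were 0.02, 0.43, 0.05 and 0.53, with edgeR adjusted p between 0.235 and 0.992. The NeuN+ ratio at 72 h was 1.48 (1.01 to 2.21). In NeuN- wells the ratios lay between 0.865 and 1.36, and each counting interval held 1.

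Irf5 (chr6:29526625-29541871, plus strand), a factor of myeloid inflammatory genes, passed no filter in the wells. In NeuN- wells it had 3 to 4 UMIs per saline group and 10 to 19 per IFN-γ group, and the wells overlapped at each time. Its largest ratio there was 3.55 (1.05 to 18.8) at 24 h, which was not called without a filter (log2 fold change 1.72, edgeR adjusted p = 0.25). In NeuN+ wells the ratios lay between 0.408 and 1.78.

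Cell type markers moved with treatment in the same wells. In NeuN- wells all 6 oligodendrocyte markers had counts, and their sum was 6921 to 7973 CPM in saline and 3816 to 4872 CPM with IFN-γ at 6 h, and 7044 to 8623 and 2347 to 2944 CPM at 24 h. The sum of 6 astrocyte markers was 364 to 789 and 981 to 1386 CPM at 24 h. Of 8 microglial markers, Tmem119 was at 0 in IFN-γ wells at 6 h, and their sum was 420.0 to 557 CPM in saline and 47.7 to 169.6 CPM with IFN-γ. In NeuN+ wells at 6 h the oligodendrocyte markers summed to 288 to 403 and 157 to 209 CPM, and those of microglia, with Tmem119 at 0 in saline and C1qa at 0 with IFN-γ, to 71.5 to 90.2 and 78.6 to 105 CPM. At 24 h in NeuN+ wells the astrocyte markers summed to 29.2 to 102 and 122 to 141 CPM and 3 markers of GABA neurons to 206 to 323 and 107 to 161 CPM, without overlap, and all had counts. Further sums separated without overlap. Among them, in NeuN+ wells at 6 h, were those of astrocytes (50.5 to 80.8 in saline, 26 to 37.3 CPM with IFN-γ) and VGLUT2 neurons (1841 to 2045, 1536 to 1684 CPM). At 48 h in NeuN- wells so did oligodendrocyte (7786 to 8692, 6443 to 7774 CPM) and astrocyte markers (327 to 607, 627 to 766 CPM). The microglial sums there were 452 to 623 and 248 to 376 CPM, with C1qa at 0 with IFN-γ. The part of these shifts in the values of Irf1, Irf2, Irf7 and Irf9 was not tested.

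The time course of the response was compared among IFN-γ wells. Between 6 and 24 h no member was called in NeuN- (0 of 2 tested, with 9.03% of all genes called) or NeuN+ wells (0 of 4, with 1.67%). Irf1 in NeuN- wells had a log2 difference of -0.74 (SE 0.17, edgeR adjusted p = 0.000308) and overlapping wells, and among the members that passed the filter it was the 1 with an unadjusted p under 0.05 by edgeR. Without a filter Irf5 in NeuN+ wells was at 1.63 (SE 0.63, unadjusted p = 0.00903, edgeR adjusted p = 0.164). DESeq2 called 0 in both. These times also differ in the sex-linked genes, so time and sex of the mice cannot be told apart.

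Between 24 and 72 h Irf1 and Irf2 fell in NeuN- wells, 2 of 2 tested, with 12.4% of all genes called. Irf1 fell by 3.63 on the log2 scale (SE 0.30, edgeR adjusted p = 7.7e-17) and Irf2 fell by 1.24 (SE 0.15, edgeR adjusted p = 1.57e-10). Less the same difference in saline wells, the change of Irf1 was -3.60, and with 1 saline count at each time it was not called (edgeR adjusted p = 0.307).

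In NeuN+ wells Irf1 and Irf9 fell between 24 and 72 h, 2 of 4 tested, with 1.92% of all genes called. The log2 differences were -4.71 for Irf1 (SE 0.33, edgeR adjusted p = 5.3e-17) and -1.60 for Irf9 (SE 0.21, edgeR adjusted p = 3.94e-08). Irf2 was lower by less than the limit of 1 (-0.77, edgeR adjusted p = 3.78e-13). The early IFN-γ wells, where Irf1 and, in NeuN+ wells, Irf9 were high, counted towards the filter of these fits. The counts out of the members tested are a description here too, in both fractions.

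Markers also moved between these IFN-γ groups. From 24 to 72 h the 6 oligodendrocyte markers went from 2347 to 2944 CPM up to 7326 to 8260.4 CPM in NeuN- wells, and from 256 to 313 up to 600.1 to 700.1 CPM in NeuN+ wells. In NeuN+ wells the 6 dopamine neuron markers went from 216 to 285 up to 452 to 566 CPM, the 3 GABA neuron markers from 107 to 161 up to 261 to 322 CPM, and the 3 VGLUT2 neuron markers from 1985 to 2142 down to 1418 to 1536 CPM. All these markers had counts, and their part in the lower levels of Irf1, Irf2 and Irf9 at 72 h was not tested.

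Neighbouring times were also compared by the overlap of the IFN-γ wells. In NeuN+ IFN-γ wells Uty lay at 297 to 329.7 CPM at 24 h, 2.91 to 10.5 CPM at 48 h and 336 to 415 CPM at 72 h. Time and the sex of the mice therefore cannot be told apart between neighbouring times. Irf1 at 24 and 48 h did not overlap in either fraction (means 9.88-fold apart in NeuN- and 18.4-fold in NeuN+ wells), whereas 6 and 24 h overlapped, as did 48 and 72 h. Irf2 had means at 24 h 1.98-fold above 48 h in NeuN- and 1.62-fold in NeuN+ wells and no overlap. Irf9 in NeuN+ wells had a mean at 24 h 2.95-fold above that at 48 h, without overlap, and in NeuN- wells these times overlapped. Irf7 also overlapped between 24 and 48 h in NeuN- wells and did not in NeuN+ wells. Between 6 and 24 h the mean of Irf1 moved by a ratio of 0.699 in NeuN- and 1.05 in NeuN+ wells and that of Irf7 by 0.572 and 1.46, with overlap each time.

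Irf8 (chr8:120736358-120756694, plus strand), the factor that microglia need for their development, had 0 counts in all 84 wells and all 4699 nuclei. The annotation places the whole gene inside Gm20388 (chr8:119910841-124345722, plus strand), a gene model 4434882 bases long with 11130 UMIs in the wells and 51564 in the nuclei. All 36 protein-coding genes on the strand of Gm20388 and inside it, Irf8 among them, were at 0 in both tables. They include Rpl13, a ribosomal protein gene, Tubb3, a neuronal tubulin gene, and Cox4i1, a subunit of the respiratory chain, which were named after their values were seen.

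On the other strand inside Gm20388, 0 of 35 protein-coding genes were at 0 in the wells and 1 of 35 in the nuclei. Over the rest of the chromosome 8.46% of 957 protein-coding genes were at 0 in the wells and 7.94% in the nuclei. For the nuclei the authors kept reads that mapped to a single gene body, introns included, and for the wells such a rule was not given in the sources used here. The 0 of Irf8 was therefore not read as absence of its RNA.

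**Figure D3:**
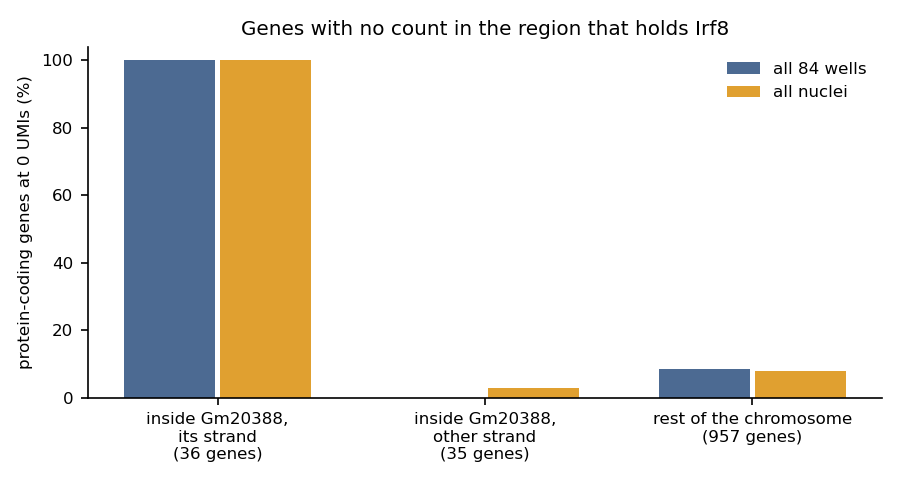
Percentage of protein-coding genes with 0 UMIs, in all 84 wells and in all nuclei, for genes inside Gm20388 on its strand, inside it on the other strand, and on the rest of the chromosome. All 36 genes on the strand of Gm20388, Irf8 included, are at 0, against 0 and 1 of 35 on the other strand.

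The single nuclei placed the members in cell types at 48 h. Nuclei were clustered without the members, and clusters were named X-like from marker genes. The classes were oligodendrocyte-like (191, 744 and 306 nuclei in the saline mouse and IFN-γ mice 1 and 2), astrocyte-like (21, 135 and 37), VGLUT2 neuron-like (256, 768 and 283), GABA neuron-like (292, 563 and 261) and dopamine neuron-like (166, 122 and 94). Cluster 12 (31, 49 and 54 nuclei) had counts of all 8 microglial markers, at 9776 CPM in the saline mouse and 5243 and 5759 CPM in the IFN-γ mice against 44.6 to 81 in oligodendrocyte-like nuclei. Its nuclei held, in the median, 0.314 times the UMIs of the median nucleus of their sample. Because none of those markers was among its 10 leading genes either, it keeps its number. UMIs were summed per mouse and class and scaled to the total of the sum as CPM, and intervals are exact Poisson intervals that cover counting error only.

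With 1 saline mouse, genes were called where the log2 fold change passed 3, the adjusted p was under 0.01 and both IFN-γ mice had a log2 ratio to saline past 3. A gene was tested with at least 10 UMIs over the mice of a class. In oligodendrocyte-like nuclei Irf1 and Irf7 had 0 UMIs in the saline mouse and passed through the IFN-γ mice. The counts out of the members tested are therefore a description. Irf1, Irf7 and Irf9 were called higher in oligodendrocyte-like nuclei, 3 of 5 members tested, where 0.593% of all genes were called. DESeq2 called none of these 3 members, since Irf1 (log2 fold change 7.86) and Irf9 (3.42) missed the p limit and Irf7 had no adjusted p. In the other classes the count was 0, of 4 members in astrocyte-like nuclei (0.116% of all genes called), of 6 in cluster 12 (0.808%), and of 6 each in VGLUT2 (0.0526%), GABA (0.00537%) and dopamine neuron-like nuclei (0.0505%). DESeq2 called 0 there too, and by edgeR an unadjusted p under 0.05 was reached by Irf1 in astrocyte-like nuclei and cluster 12, by Irf7 and Irf9 in VGLUT2 and by Irf9 in GABA neuron-like nuclei.

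**Figure D4:**
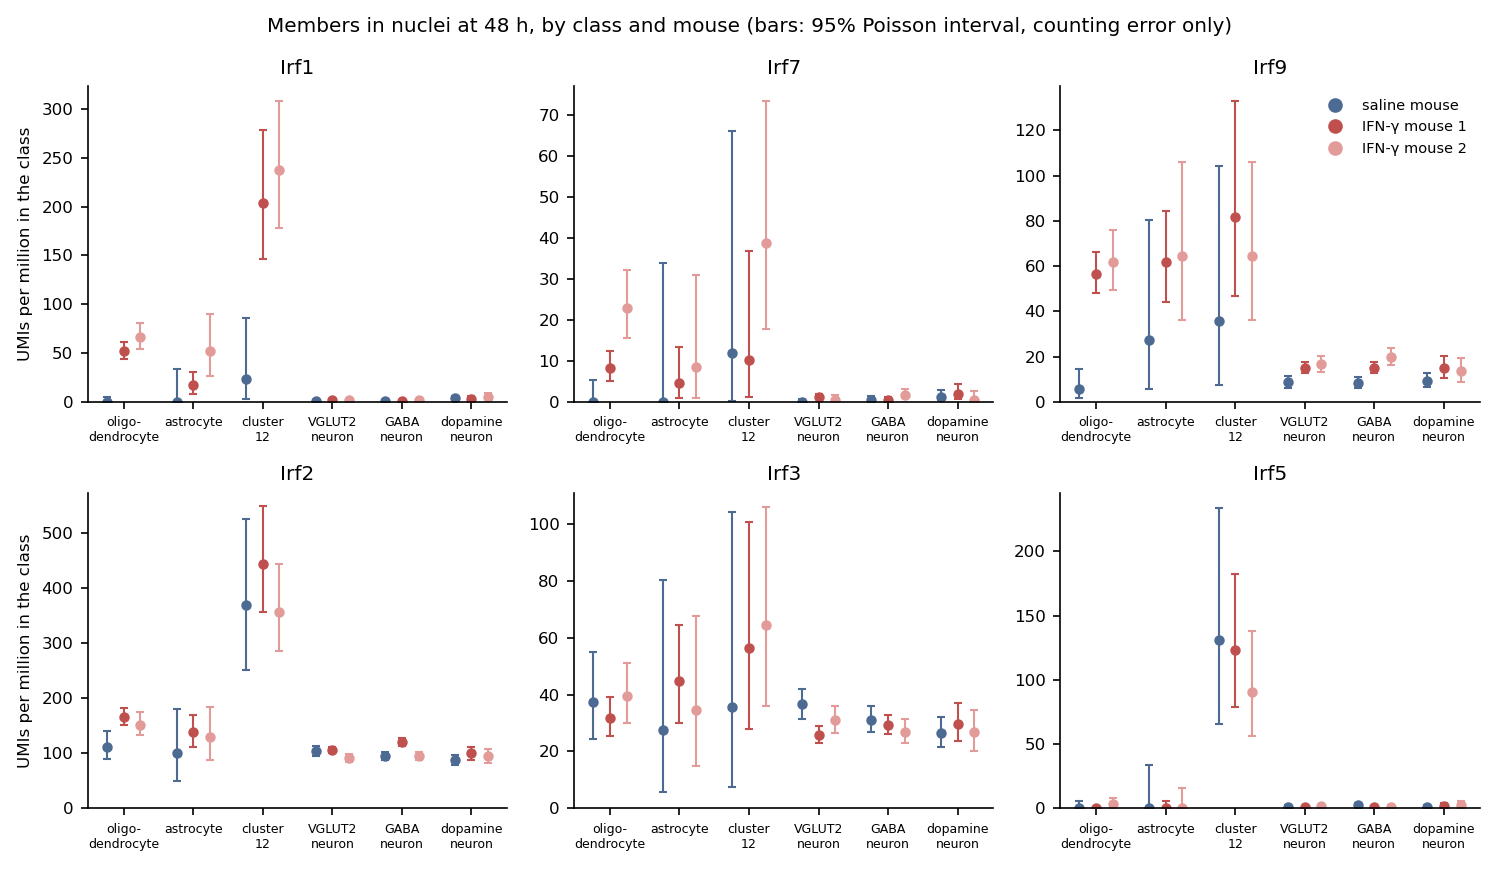
CPM of Irf1, Irf7, Irf9, Irf2, Irf3 and Irf5 in each class of nuclei at 48 h, by mouse, with 95% Poisson intervals and a separate vertical scale for each gene. Irf1 is at 52.2 and 66.5 in oligodendrocyte-like nuclei of the IFN-γ mice with 0 UMIs in saline, and Irf5 stands at 90.4 to 131 in cluster 12 of each mouse.

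In oligodendrocyte-like nuclei Irf1 had 0 UMIs in the saline mouse, and 141 and 96 in the IFN-γ mice, or 52.2 (43.9 to 61.6) and 66.5 (53.9 to 81.2) CPM. It was at least 13.2-fold higher by the floor of 3 counts (edgeR adjusted p = 8.59e-16). Irf7 had 0, 22 and 33 UMIs, or 8.15 (5.11 to 12.3) and 22.9 (15.7 to 32.1) CPM in the IFN-γ mice, whose intervals did not overlap. It was at least 3.07-fold higher over both mice (edgeR adjusted p = 0.0027), at least 1.89-fold in mouse 1 and at least 5.29-fold in mouse 2. Irf9 had 4, 153 and 89 UMIs, a ratio of 10.1 (3.91 to 37.5), with a log2 fold change of 3.40 (SE 0.48, edgeR adjusted p = 2.95e-10). The fit of these sums had 1 residual degree of freedom, and the lone saline mouse was taken to vary like the others.

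Irf2 in the same nuclei was at 112, 166 and 152 CPM, a ratio of 1.44 (1.14 to 1.84), and was not called (log2 fold change 0.58, edgeR adjusted p = 0.138). Irf3 was at 37.4, 31.8 and 39.5 CPM, and the intervals of the mice overlapped. Irf5 had 0, 0 and 5 UMIs.

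The oligodendrocyte-like class was made of clusters 0, 2 and 4, and cluster 2, with the IFN-γ response genes Tgtp2, Irgm1, Irgm2 and Gbp2 among its leading genes, held 239 and 125 nuclei of the IFN-γ mice and none of the saline mouse. Irf1 was highest in cluster 2, at 96.3 (77.2 to 119) and 129.6 (102 to 162) CPM. It was also present in cluster 0, at 40.3 and 31.7, and in cluster 4, at 14.8 and 18.5, with 0 UMIs in the saline nuclei of both. The intervals of clusters 0 and 4 did not overlap in mouse 1 and overlapped in mouse 2.

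Irf9 was spread more evenly over these clusters. It was at 60.5 and 53.9 CPM in cluster 0, at 62.4 and 69.9 in cluster 2 and at 44.3 and 57.2 in cluster 4, and the intervals overlapped within each mouse. In saline it was at 4.91 in cluster 0 and 6.97 in cluster 4, from 2 UMIs each. Since the clusters were built on genes that respond to IFN-γ, these levels are a description.

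**Figure D5:**
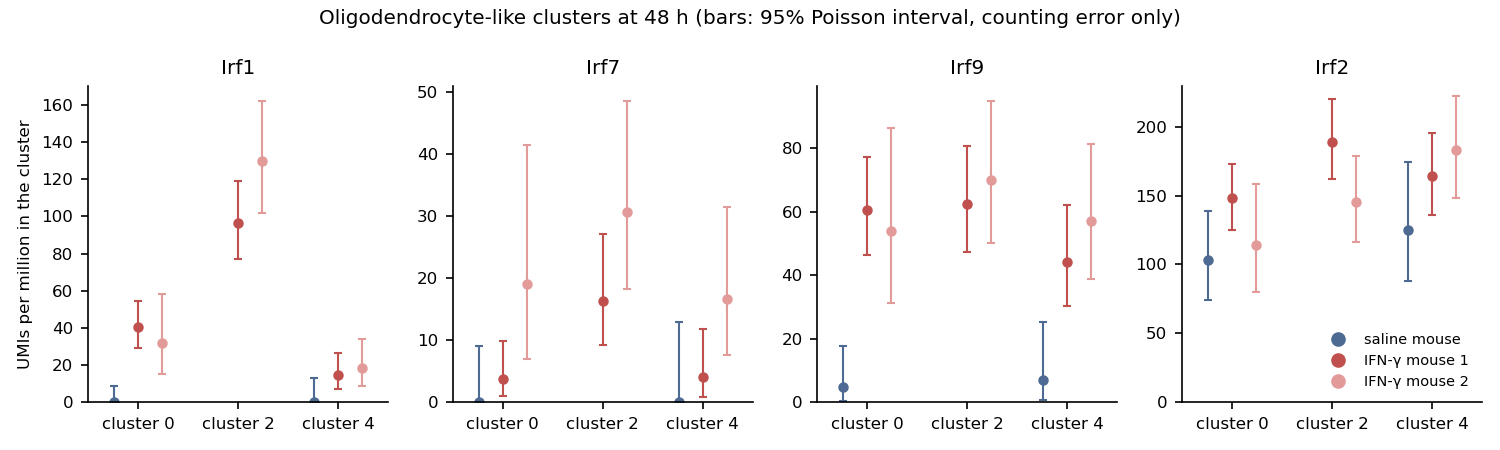
CPM of Irf1, Irf7, Irf9 and Irf2 in the 3 oligodendrocyte-like clusters at 48 h, by mouse, with 95% Poisson intervals. Cluster 2 has no saline nuclei, and Irf1 is highest there (96.3 and 129.6) while Irf9 differs little between clusters.

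Cluster 12 had the highest level of Irf1. It held 2, 40 and 55 UMIs, or 23.8 (2.88 to 86), 204 (146 to 278) and 237 (178 to 308) CPM, and the ratio was 9.32 (2.51 to 78). The log2 fold change was 3.16 (SE 0.74, edgeR adjusted p = 0.00425), and the log2 ratio of mouse 1 was 2.80, short of the limit of 3. Beside the microglial markers, which were lower in the IFN-γ mice, other lists had counts in cluster 12. The 4 endothelial markers, 2 of them with UMIs in each IFN-γ mouse, summed to 0, 112 and 108 CPM. The 5 markers of monocytes or border macrophages, of which 3, 2 and 4 had UMIs, summed to 464, 322 and 559.5 CPM. The part of these cells in the value of Irf1 was not tested. At a limit of 1, Irf1 was called, 1 of 6 members, where 1.50% of all genes were called.

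Among the other classes of the IFN-γ mice, Irf1 followed in the order oligodendrocyte-like, astrocyte-like (17 and 51.6), dopamine (3.05 and 5.06), VGLUT2 (1.81 and 1.59) and GABA neuron-like nuclei (0.609 and 1.39 CPM). The intervals of oligodendrocyte-like and astrocyte-like nuclei overlapped in mouse 2 and not in mouse 1, and those of the 3 neuronal neighbours overlapped in both mice. In neurons the ratio to saline was 1.05 (0.504 to 2.21) in dopamine, 0.876 (0.316 to 2.78) in GABA and 2.97 (0.928 to 15.2) in VGLUT2 neuron-like nuclei.

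Irf5 was found in cluster 12 of every mouse, at 131 (65.4 to 234), 123 (78.5 to 182) and 90.4 (55.9 to 138) CPM, with a ratio of 0.802 (0.409 to 1.72). In the other classes named here it was at 3.46 or less. Irf2 was also highest in cluster 12, at 369, 444 and 357 CPM, and between 87.1 and 166 in the other classes.

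Irf9 was measured in neurons as well. It was at 8.58, 15 and 16.5 CPM in VGLUT2, at 8.18, 15.1 and 19.9 in GABA and at 9.09, 14.9 and 13.4 in dopamine neuron-like nuclei of the saline mouse and IFN-γ mice 1 and 2. The ratios were 1.81 (1.31 to 2.54), 2.07 (1.51 to 2.87) and 1.56 (1.03 to 2.4). None was called, and on the log2 scale the changes were 0.87, 1.08 and 0.63 with edgeR adjusted p between 0.334 and 1.

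In astrocyte-like nuclei Irf1 had 0, 11 and 12 UMIs (log2 fold change 6.23, edgeR adjusted p = 0.604). Irf9 was at 27.5, 61.8 and 64.5 CPM there, a ratio of 2.27 (0.739 to 11.4). With 21 saline nuclei and 109155 UMIs in that class, a difference was not detectable at this depth.

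Lists of genes around the IRFs were read in the same fits. In NeuN- wells at 6 h Stat2, the partner of IRF9 in ISGF3, was higher by a log2 fold change of 3.11 (SE 0.21, edgeR adjusted p = 5.55e-15). At 72 h it was still higher in NeuN- wells (1.55, SE 0.35, edgeR adjusted p = 0.00472).

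Listed genes with few saline UMIs passed the filter through the IFN-γ wells or mice, so the counts below are a description. They are given of the whole list, or of the genes tested where so stated. Of 10 genes known as IRF1 targets, 5 were called higher in NeuN- wells at 6 h and 5 were not tested, where 11.7% of all genes tested were called. Gbp2, a guanylate-binding protein, had 2 UMIs in saline and 457 with IFN-γ (log2 fold change 6.81), Cd274, which encodes PD-L1, had 6 and 418 (5.28), and Tap1, a peptide transporter, had 2 and 103 (4.68). In NeuN+ wells 5 of the 10 were called higher at 6 h and 4 at 24 h, where 1.37% and 1.73% of all genes were called. Nlrc5, the transactivator of MHC class I genes, was higher to 72 h, at 3.82 in NeuN- (edgeR adjusted p = 2.35e-07) and 2.64 in NeuN+ wells (edgeR adjusted p = 0.000443). In oligodendrocyte-like nuclei 5 of 7 tested were called, with 0.593% of all genes, and in cluster 12 3 of 10, Nlrc5, Ciita and Cxcl10, with 0.808% of all genes.

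Of 12 genes known as targets of ISGF3, 4 were called higher in NeuN- wells at 6 h and 8 were not tested, with 11.7% of all genes called. In NeuN+ wells 8 of the 12 were called higher at 6 h and 8 at 24 h, with 1.37% and 1.73% of all genes called. They included Usp18, which damps the type I receptor (5.90 at 24 h), and Oasl2 (5.62 at 24 h). Between 24 and 72 h 10 of the 12 were called lower in NeuN+ wells, with 1.92% of all genes called, and 2 were not tested. In oligodendrocyte-like nuclei 6 of 12 were called, with 0.593% of all genes.

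Of 16 genes of the activators of IRF3 and IRF7 and of the type I receptor, 3 were called higher at 6 h in each fraction. In NeuN- wells 4 of the 16 were tested and 11.7% of all genes were called. In NeuN+ wells 9 of the 16 were tested and 1.37% of all genes were called. The RNA sensors Ifih1 and Ddx58 were among those called, at 4.45 and 2.86 in NeuN- and at 3.78 and 3.21 in NeuN+ wells. These counts too are a description. The lists of IRF8 partners (6 genes) and of other family members (5 genes) could hardly be read in the wells. Between IFN-γ and saline within a fraction, 1 of the IRF8 partners was tested in NeuN- wells at 72 h and 0 otherwise. Of the other family members 0 were tested there in NeuN- and 1 to 2 in NeuN+ wells. In the classes of nuclei 0 to 6 and 2 to 3 of them were tested. None of those tested was called by edgeR between IFN-γ and saline.

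The genes whose levels ran most like a member over the 42 wells of a fraction were listed by Pearson's r of log2(CPM + 1). For Irf1 they were Grik2, a kainate receptor subunit (0.917), and Gm12250 (0.915) among 3576 genes in NeuN- wells, and Rnf213 (0.946) and Stat3 (0.942) among 10953 genes in NeuN+ wells. For Irf2 in NeuN- wells they were Grik2 (0.863) and Cxcl10 (0.862). For Irf9 in NeuN+ wells they were Gm43302 (0.904) and Samd9l (0.903). The wells share treatment, time and depth, so these values are a description.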

How the data were processed

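UMI counts of 84 wells and of 4699 nuclei were analysed as the authors deposited them. Per the study's methods and the submitters' processing notes, reads were aligned to GRCm38 with STAR (version not given in the sources used here), and reads sharing barcode, UMI and gene were collapsed. Groups came from the labels, and the fraction from the study's list of well barcodes. The tested unit was the well, and in nuclei the sum per mouse and class. For nuclei, 5 rows that name no gene held 0 UMIs and were left out, and 0 cell barcodes were shared between libraries.

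Positions came from a later GENCODE release of the same build than the one the authors used. Counts were tested with edgeR 4.0.16 (TMM, filterByExpr, quasi-likelihood, R 4.3.3), adjusted by Benjamini-Hochberg over all genes tested, in 23 comparisons. A call needed an adjusted p below 0.01 and a log2 fold change beyond 1, beyond 0.5 between fractions or beyond 3 in nuclei. The SE given is the size of the log2 fold change divided by the square root of the F statistic of the test. It does not stand for the counting error where a group has few counts. Nuclei with 2000 variable genes, 30 principal components and 15 neighbours were clustered without the members (leidenalg 0.10.2, resolution 1). A cluster took a class where its marker list led the next by 0.75, a limit set after seeing the data, with at least 3 markers each found in 5% of its nuclei. A cluster that was both shallow and without a marker of its list among its 10 leading genes was not named. No doublet caller was run. Pooled ratios have exact conditional 95% intervals, and a group at 0 was given a floor of 3 counts. Intervals and floors cover counting error only, since PCR and wells add spread.

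All 7 members are named whatever their values, with up to 4 called genes of each list by size of change and the 5 genes most like a called member, of which the leading ones are printed. The members and lists were chosen with earlier results of these data known. Alternatives were DESeq2 1.42.0, RLE size factors, no filter, pooled controls, 1 fit of all wells, thinned counts, other cluster resolutions and leaving out each well or mouse. Fits of some of the comparisons, not of all, were tried on simulated data, and the outcome is not reported here. One item of the receptor signalling list is not reported here, and so no count of that list is given.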

Additional observations from a re-analysis of the deposited data

Results flagged for a closer look

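Of 48 groups of wells, 8 held a well far from the others. Chance gives about 1 in 20 for continuous values, and that rate does not apply to a group with a single count, where the other wells at 0 meet the rule in any case. In saline, 1 well each held the single Irf1 count of its group, at 10 CPM (6 h), 14.4 CPM (24 h), 9.83 CPM (48 h) and 7.19 CPM (72 h) in NeuN- and at 1.07 CPM (6 h) in NeuN+ wells, with every other well of the group at 0. Irf1 in NeuN- IFN-γ wells at 72 h had a lowest well at 7.44 CPM, and the next was at 18.2 CPM.

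Irf2 in NeuN+ saline wells at 48 h had a highest well at 141 CPM, and the next was at 117 CPM. In the IFN-γ wells of that time the lowest was at 84.3 CPM, in a well of 344073 UMIs, and the next was at 131 CPM.

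The log2 fold change of Irf2 was lower in NeuN+ than in NeuN- wells by an interaction of -0.67 at 6 h (edgeR adjusted p = 0.0215, and 0.0955 without a filter) and of -0.65 at 24 h (edgeR adjusted p = 0.00911, and 0.0277 without a filter). Neither was called, since both missed the fold limit and the 6 h value also the p limit of 0.01.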

How the results depend on the processing

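Of 345 counts of called members under other settings, 329 lay within 1.5 times the reported count and 16 did not. In NeuN- wells at 24 h the count was 4 without a filter on low counts and 4 in 1 fit of all 84 wells, in place of 2. In NeuN+ wells with counts thinned to the depth of NeuN- wells it was 0 at 6 h and 0 at 24 h. With thinning and no filter, an alternative chosen after seeing the data, it was 1 and 1, Irf1 each time. As single wells were left out it ranged from 1 to 2 in NeuN+ wells at 6 h, with the low value without saline replicate 8. Between fractions in saline it was 2 with DESeq2 and 2 without a filter, Irf3 and Irf5 both times with Irf2 not called, and 5 in a fit of all 84 wells, in place of 1. Between 72 and 24 h in NeuN- wells it was 1 less the saline difference. In oligodendrocyte-like nuclei it was 0 with DESeq2, in place of 3. In cluster 12 it was 1 at a limit of 1. With 1 IFN-γ mouse left out, where no test is possible, it ranged from 0 to 1 in astrocyte-like nuclei, from 0 to 1 in cluster 12 and from 0 to 1 in VGLUT2 neuron-like nuclei. The cause was not tested beyond what each setting changes. Of 249 values of called members, 236 kept their direction and side of the threshold, 9 lost and 4 gained a call, and 0 reversed. Of 752 values of members that no setting called, 45 had the other sign. No paired analysis was possible because the replicate numbers were given in accession order and the sources used here do not tie wells or nuclei of different groups to a shared mouse, litter or batch.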
